A study of Bos taurus with 40 samples.

Results

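Whole bovine oocytes were compared with the cumulus cells that surround oocytes in the follicle. The comparison takes 12 of the 40 samples of the series, 4 oocyte libraries (numbers 2, 3, 6 and 16) and 8 cumulus libraries, chosen by their labels alone. Bos taurus cumulus-oocyte complexes were matured in vitro, and every sample is labelled diploid, with no treatment, strain or age given. Of the cumulus libraries, 4 belong to oocytes that reached the blastocyst stage and 4 to oocytes that stopped at cleavage, and both fates were pooled here. No fate is given for the 4 whole oocytes. Nothing states that the oocytes, or the cumulus samples, came from separate animals, so the p-values measure the spread between these samples, which may be technical. The other RNA libraries of the series, 12 ooplasm biopsies and 8 granulosa libraries, serve below as a description.

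A fully grown oocyte arrested in meiosis hardly transcribes its genome and lives on a store of messenger RNA whose translation is set by the length of the poly(A) tail. Cumulus cells are somatic cells of the granulosa lineage that are coupled to the oocyte, feed it, and secrete a matrix around it during maturation.

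RNA was amplified with SMART-Seq HT, made into Nextera XT libraries and deposited as a count per row, where a row is a gene or transcript locus. In units of 1000000 counts, the oocyte libraries held 17.2 to 23.8 and the cumulus libraries 7.96 to 9.59. Oocytes and cumulus cells were deposited in separate tables, so cell type and table are the same split and cannot be told apart. Rows with NONCODE identifiers were left out. They held 4.21% to 9.27% of counts in the oocytes and 0.000323% to 0.00276% in the cumulus libraries. Of 36824 other rows, 29329 had a count in the 12 libraries and 17441 passed the filter on low counts and were tested. CPM below are counts per 1000000, scaled by the TMM method. They are not divided by transcript length, so they are read between groups within a gene and not between genes.

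The labelled cell types were checked against lists of known markers, of which few have a row under a symbol. H1FOO, the linker histone of the oocyte, stood at 699, 1177, 1618 and 1404 CPM in oocytes 2, 3, 6 and 16. A single H1FOO count was found among all 8 cumulus libraries, and the ratio was 104206 (95% counting interval 18702 to 4115972). TIMP1, a metalloproteinase inhibitor secreted by follicular somatic cells, stood at 803 to 1215 CPM (median 929) in the cumulus libraries and at 2.896, 1.76, 0.191 and 0.8497 CPM in the oocytes. The groups did not overlap for either marker. In the granulosa libraries TIMP1 stood at 0.493 to 350 CPM (median 19.3), below the cumulus range, so its level is not shared by all follicular somatic samples. Of 55 oocyte markers listed, 6 had a row and 5 were tested. TCL1B, an AKT coactivator, had 44.6, 16.1, 15.9 and 39.1 CPM in the oocytes and 0 to 0.189 CPM in cumulus cells. PABPC1L, the poly(A)-binding protein of oocytes and early embryos, had 13.6, 0.176, 7.54 and 10.7 CPM and 0.428 to 1.89 CPM, with oocyte 3 below the cumulus range. BCL2L10 is described below. FBXW12, an F-box protein, went the other way, with 3.28, 2.11, 9.45 and 5.69 CPM in the oocytes and 21.3 to 29.4 CPM (median 24.8) in cumulus cells (log2 fold change -2.29, SE 0.32, edgeR adjusted p = 5.06e-06). The sixth row had a count in these libraries but did not pass the filter on low counts. ITM2A, the other cumulus marker with a row, had 0 counts in cumulus libraries and 2 in the oocytes. No marker listed for theca and stroma, or for endothelium and blood, had a row, so those cell types could not be checked.

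Most of the tested transcriptome differed between the cell types. In all 15525 of 17441 rows (89%) were called at an edgeR quasi-likelihood adjusted p under 0.05, 7466 (42.8%) higher in oocytes and 8059 (46.2%) higher in cumulus cells. With a fold of at least 4 as well, 5045 (28.9%) were higher in oocytes and 5826 (33.4%) in cumulus cells. All 4 oocytes lay above all 8 cumulus libraries in 6558 rows (37.6%) and below them in 7386 (42.3%). In 291 of the rows higher in oocytes every cumulus library was at 0 counts, and in 575 of the rows higher in cumulus cells every oocyte was. Such rows passed the filter on low counts only through the group where they were present, so their direction was fixed by it. The median fold change over all tested rows was -0.20 on the log2 scale, and the median size of a change 2.76. Scaling by library totals alone moved that median to -1.11 and the calls to 5840 higher in oocytes and 9637 higher in cumulus cells, so small differences are read relative to the scaling. A level is a share of a library's RNA, and in such libraries fewer cells of a type and less RNA per cell cannot be told apart.

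**Figure D1:**
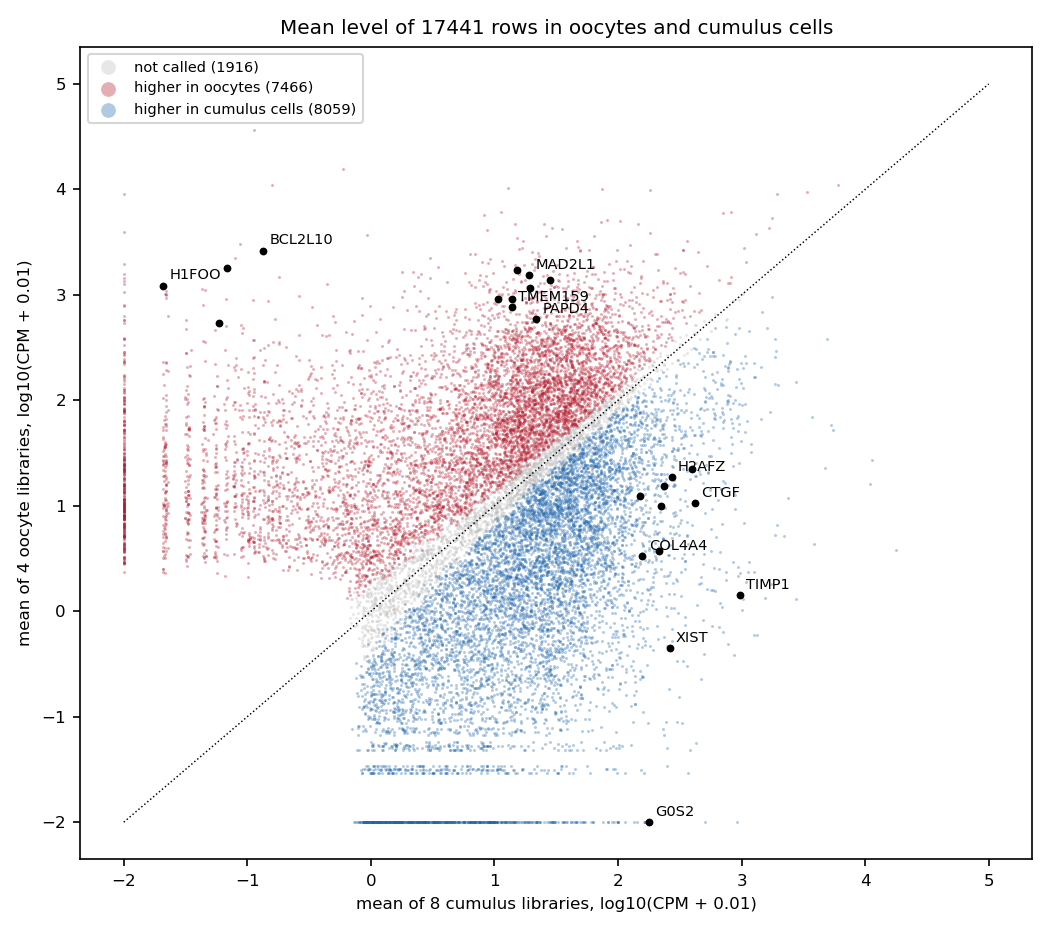
Mean level of the 17441 tested rows in 8 cumulus libraries (horizontal) and 4 oocyte libraries (vertical), both as log10 of CPM plus 0.01, with 7466 rows called higher in oocytes in red, 8059 called higher in cumulus cells in blue and 1916 not called in grey. The black points are 23 of the rows named first in the text. The rows spread far from the dotted line of equal level on both sides, and those with no count in one group lie along the left and lower edges.

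Libraries of a cell type resembled each other far more than they resembled the other type. Pearson's r of log2(CPM + 1) across genes, which share library and depth and are not replicates, was 0.204 to 0.321 in the 32 pairs of an oocyte and a cumulus library. It was 0.929 to 0.979 in the 6 pairs of oocytes and 0.986 to 0.993 in the 28 pairs of cumulus libraries. Single oocytes varied more than cumulus samples on the TMM scale. Over 6066 rows above 10 CPM in both groups the median coefficient of variation was 31.4% in oocytes and 9.23% in cumulus libraries. The TMM factors ran from 0.501 to 0.844 in oocytes and from 1.22 to 1.26 in cumulus libraries. The coefficient was not computed under another scaling.

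The rows with a symbol that had the highest mean CPM in oocytes, among those at least 8-fold higher with no overlap between groups (3723 rows, 21.3%), were led by BCL2L10, a BCL2-family regulator of cell death. It stood at 1712, 4989, 2214 and 1616 CPM in oocytes 2, 3, 6 and 16 and at 0 to 0.367 CPM (median 0.0979) in cumulus cells (log2 fold change 14.22, SE 0.49, edgeR adjusted p = 6.08e-13). Oocyte 3 had the most BCL2L10, and the log2 fold change without it was 13.63. TDRD15, a Tudor domain protein, had 882, 3352, 1859 and 1094 CPM in the oocytes against 0 to 0.183 CPM (median 0.0435) (log2 fold change 14.67, SE 0.50, edgeR adjusted p = 5.39e-13). MAD2L1, the spindle checkpoint protein that holds back chromosome separation, was present in both cell types. Its levels were 585, 2338, 1941 and 1312 CPM in the oocytes and 15.6 to 24.5 CPM (median 19.04) in cumulus cells, a log2 fold change of 6.34 (SE 0.29, edgeR adjusted p = 9.03e-12). The lowest oocyte for MAD2L1, number 2, was above every cumulus library, as the choice of rows required.

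RAMMET, now named RAMAC, the activating subunit of the enzyme that methylates the mRNA cap, had 1069, 2652, 1714 and 1422 CPM in the oocytes and 13.8 to 16.8 CPM (median 15.3) in cumulus cells (log2 fold change 6.80, SE 0.21, edgeR adjusted p = 1.94e-13). MPP5, the polarity scaffold PALS1, had 1069.5, 1650.2, 1650.3 and 1117 CPM against 23.7 to 34.5 CPM (median 27.5) (log2 fold change 5.60, SE 0.17, edgeR adjusted p = 1.68e-13). Both were expressed in every library, and the oocyte range lay above the cumulus range, as the choice of rows required. SENP8, the protease that removes NEDD8 from proteins, had 519, 1256, 1061 and 821 CPM against 8.58 to 12.7 CPM (median 10.8) (log2 fold change 6.41, SE 0.22, edgeR adjusted p = 4.32e-13). FAM161A, a protein of the cilium base and centrosome, had 442, 989, 1204 and 1022 CPM against 12.3 to 15.2 CPM (median 13.7) (log2 fold change 6.04, SE 0.21, edgeR adjusted p = 7.03e-13). TMEM159, the lipid droplet assembly factor LDAF1, was the most even of these between oocytes, with 803, 824, 732 and 723 CPM against 12.6 to 15.6 CPM (median 13.5) (log2 fold change 5.79, SE 0.12, edgeR adjusted p = 1.85e-14).

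Oocyte 3 set the level of FREM3, an extracellular matrix protein of the FRAS1 family. FREM3 stood at 70.3, 1847, 141 and 93.7 CPM in oocytes 2, 3, 6 and 16 and at 0 to 0.203 CPM (median 0) in cumulus cells (log2 fold change 13.20, SE 1.10, edgeR adjusted p = 1.2e-08). Without oocyte 3 the log2 fold change was 10.71, and without 1 cumulus library of the blastocyst group it was 13.82. All 4 oocytes lay above the cumulus range, as the choice of rows required. ATE1OS, a noncoding RNA from the strand opposite ATE1, had 608, 1947, 1173 and 879 CPM against 16.2 to 22.8 CPM (median 19.04) (log2 fold change 5.88, SE 0.25, edgeR adjusted p = 3.71e-12). The counting is not stated to use strand, so reads of ATE1OS and of overlapping ATE1 sequence cannot be told apart.

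In cumulus cells the corresponding rows (4353 rows at least 8-fold higher with no overlap, 25%) were led by TIMP1, at a log2 fold change of -9.37 (SE 0.49, edgeR adjusted p = 4.28e-11). CTGF, the secreted matricellular protein CCN2, had 13.5, 5.88, 13.7 and 9.35 CPM in oocytes 2, 3, 6 and 16 and 363 to 472 CPM (median 421) in cumulus cells (log2 fold change -5.30, SE 0.24, edgeR adjusted p = 1.13e-11). Oocyte 2 was the highest of the 4 oocytes for TIMP1, and without it the TIMP1 log2 fold change was -10.09. AKAP2, an anchor of protein kinase A, had 32.8, 24.9, 17.8 and 13.3 CPM against 331 to 438 CPM (median 403) (log2 fold change -4.16, SE 0.24, edgeR adjusted p = 1.58e-10). FAM129A, the stress-responsive protein NIBAN1, had 27.2, 5.97, 9.55 and 18.9 CPM against 206 to 273 CPM (median 234) (log2 fold change -3.94, SE 0.34, edgeR adjusted p = 1.91e-08). The oocytes lay below the whole cumulus range in each of these 4 genes, as the choice of rows required.

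Of the other named genes higher in cumulus cells, G0S2, an inhibitor of the lipase that releases fatty acids from lipid droplets, had 0 counts in all 4 oocytes and 119 to 233 CPM (median 177) in cumulus cells, at least 693-fold higher against a floor of 3 counts per library. GCKR, the regulator of glucokinase, had 3.89, 4.65, 3.63 and 2.63 CPM against 190.3 to 245 CPM (median 213) (log2 fold change -5.85, SE 0.19, edgeR adjusted p = 3.17e-13). SSTR1, a somatostatin receptor, had 8.38, 2.28, 15.9 and 13.3 CPM against 148 to 347 CPM (median 204) (log2 fold change -4.48, SE 0.44, edgeR adjusted p = 9.48e-08). TMEM159 and G0S2, both tied to lipid droplets, thus stood on opposite sides of the comparison.

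**Figure D2:**
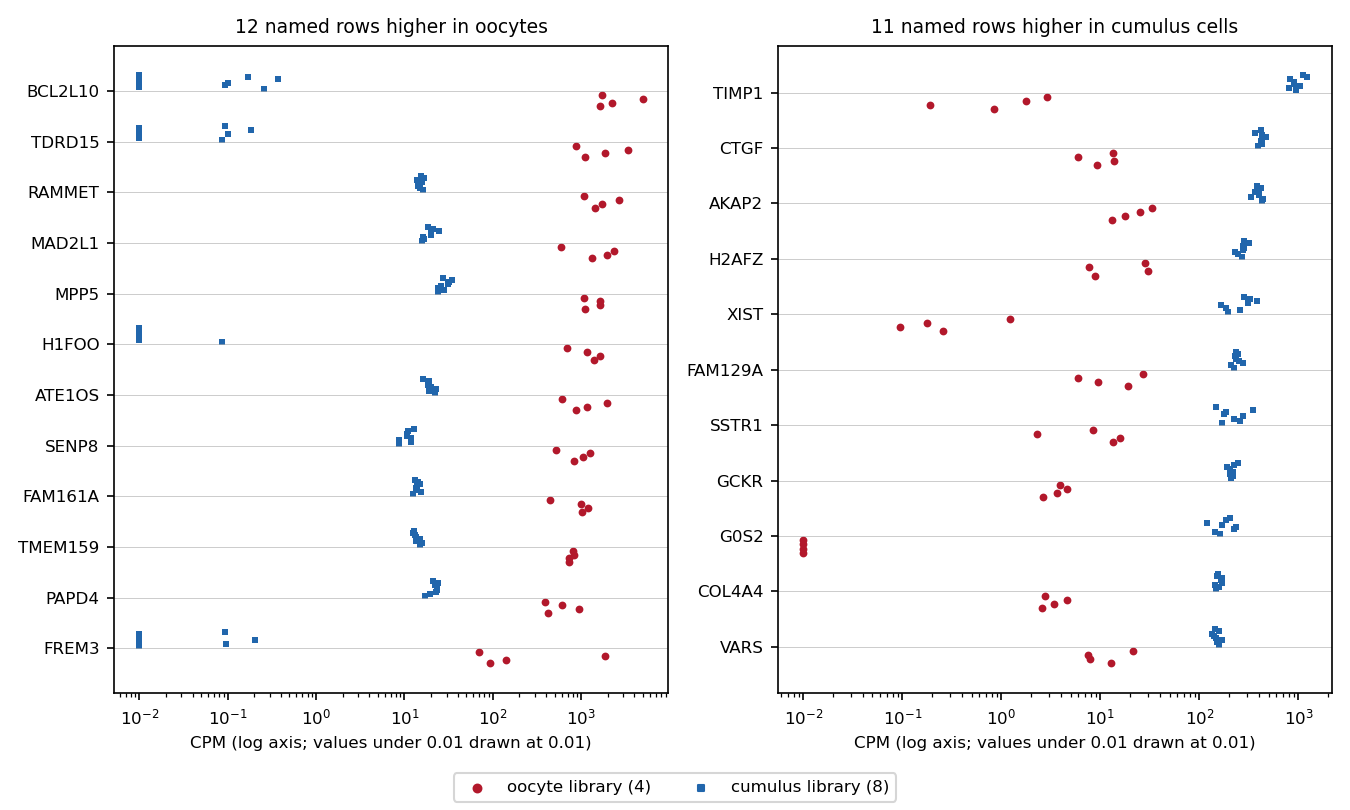
CPM of the 12 named rows highest in oocytes (left) and 11 of the highest in cumulus cells (right), on a log axis with values under 0.01 drawn at 0.01. Red circles are the 4 oocyte libraries and blue squares the 8 cumulus libraries. The groups do not overlap in any of these rows, which were chosen for that, and FREM3 has 1 oocyte at 1847 CPM while the other 3 lie between 70.3 and 141 CPM.

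Enzymes that lengthen or mark the tail of RNA were mostly higher in oocytes. Of 7 tested, 6 were higher in oocytes and 0 in cumulus cells, beside 42.8% and 46.2% of all tested rows. Their median log2 fold change was 1.85, against -0.20 for all rows. PAPD4, the cytoplasmic poly(A) polymerase GLD2 that extends stored messages in frog oocytes, had 389, 605, 939 and 425 CPM in oocytes 2, 3, 6 and 16 and 17.3 to 24.3 CPM (median 22.4) in cumulus cells (log2 fold change 4.76, SE 0.21, edgeR adjusted p = 5.8e-12). FAM46B, the poly(A) polymerase TENT5B, had 244, 109.6, 230.2 and 232 CPM against 0.358 to 1.67 CPM (median 0.741) (log2 fold change 7.95, SE 0.31, edgeR adjusted p = 1.85e-12). Oocyte 3 was the lowest for FAM46B and still above every cumulus library. The terminal uridylyltransferase ZCCHC6 had 120.3, 310.3, 254 and 144 CPM against 36.4 to 51.3 CPM (median 43.5) (log2 fold change 2.26, SE 0.21, edgeR adjusted p = 3.78e-08). Its relative ZCCHC11 had 83.5, 138, 105 and 106 CPM against 56.3 to 75.7 CPM (median 62.9) (log2 fold change 0.77, SE 0.14, edgeR adjusted p = 7.64e-05), a call that turned to -0.20 with library totals as the only scaling. PAPD7 and PAPD5, noncanonical poly(A) polymerases, had log2 fold changes of 1.77 (SE 0.13) and 1.85 (SE 0.15). FAM46A did not pass, at 9.91, 6.23, 13.7 and 11.7 CPM against 9.13 to 18.8 CPM (median 12.6) (log2 fold change -0.37, SE 0.25, edgeR adjusted p = 0.161).

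Genes of the germ line that work in the piRNA pathway or in meiosis were higher in oocytes in 4 of 4 tested members, out of 40 symbols listed, where 42.8% of all tested rows were. RNF17, MORC1 and C10H14orf39 had 8, 7 and 0 counts over the cumulus libraries. They passed the filter on low counts only through the oocytes, so their direction was fixed by it. The count of members is therefore not a result about the family. RNF17, a Tudor protein of germ granules in mouse, had 77.1, 92.997, 123 and 81.4 CPM in the oocytes and 0 to 0.257 CPM (median 0.0465) in cumulus cells (log2 fold change 9.82, SE 0.37, edgeR adjusted p = 1.17e-12). MORC1, which silences transposons in the mouse germ line, was nearly level between oocytes at 64.02, 70.6, 70.2 and 62.2 CPM, against 0 to 0.191 CPM (median 0.0883) (log2 fold change 9.51, SE 0.31, edgeR adjusted p = 3.57e-13). TDRKH, a scaffold for piRNA trimming, had 14.9, 19.7, 20.1 and 28.9 CPM against 0.406 to 1.58 CPM (median 0.683) (log2 fold change 4.74, SE 0.29, edgeR adjusted p = 3.5e-10). C10H14orf39, the cattle row of a synaptonemal complex gene described in mouse, had 17.99, 41.4, 14.04 and 12.1 CPM in the oocytes and 0 counts in the cumulus libraries, at least 77.2-fold higher. Other silencing factors differed less. FAM208A, the TASOR subunit of the HUSH complex, was higher in oocytes with 216, 361, 421 and 299 CPM against 57.7 to 98.4 CPM (median 81.3) (log2 fold change 2.04, SE 0.18, edgeR adjusted p = 3.11e-08). KIAA1551, the silencing factor RESF1, was lower with 147, 374, 343 and 293 CPM against 379 to 879 CPM (median 563) (log2 fold change -1.01, SE 0.27, edgeR adjusted p = 0.00232).

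MORC4 (log2 fold change -0.44, edgeR adjusted p = 0.0382) was called lower in oocytes and FAM208B (edgeR adjusted p = 0.1) was not called. The MORC4 call ended without oocyte 16, where its log2 fold change was -0.27, and without any of 5 cumulus libraries in turn, where it ran from -0.40 to -0.44.

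Linker histones, which bind the DNA between nucleosomes, included members higher in either cell type. Of 7 tested, 5 were higher in oocytes and 2 in cumulus cells, beside 42.8% and 46.2% of all rows. H1FOO and HIST1H1A, with 1 and 0 cumulus counts, passed the filter on low counts only through the oocytes. Beside H1FOO, HIST1H1A had 266, 200.5, 216 and 455 CPM in oocytes 2, 3, 6 and 16 and 0 counts in the cumulus libraries, at least 1027-fold higher. HIST1H1E had 178, 70.4, 165 and 364 CPM against 0.574 to 1.56 CPM (median 0.927) (log2 fold change 7.64, SE 0.37, edgeR adjusted p = 2.08e-11), and HIST1H1C had 80.5, 96.9, 136 and 237 CPM against 1.04 to 2.13 CPM (median 1.47) (log2 fold change 6.497, SE 0.28, edgeR adjusted p = 5.15e-12). Oocyte 16 was the highest for all 3 of these, and the groups did not overlap. HIST1H1D had 23.4, 42.9, 21.3 and 45.97 CPM against 1.63 to 3.68 CPM (median 3.26) (log2 fold change 3.42, SE 0.25, edgeR adjusted p = 2.02e-09). The replication-independent H1F0 was lower in oocytes, with 17.8, 10.6, 5.54 and 10.2 CPM against 71.04 to 86.1 CPM (median 78.01) (log2 fold change -2.81, SE 0.24, edgeR adjusted p = 2.02e-08). H1FX, which like H1F0 has polyadenylated messages in somatic cells, had 0.381, 0.0878, 0.0955 and 0.5098 CPM against 60.7 to 97.3 CPM (median 79.8) (log2 fold change -8.12, SE 0.35, edgeR adjusted p = 6.19e-12). Replication-dependent histone messages mostly lack poly(A) tails in cycling cells. Whether this lowered the cumulus counts of the HIST1H1 rows was not tested.

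Among the variants of the core histones, H3.3 was higher in oocytes and the H2A variants were higher in cumulus cells. Of 9 tested, 3 were higher in oocytes and 6 in cumulus cells, against shares of 42.8% and 46.2% over all rows. The H3.3 genes H3F3B and H3F3A had 1519, 3458, 3465 and 2288 CPM against 297 to 388 CPM (median 336) (log2 fold change 2.997, SE 0.19, edgeR adjusted p = 4.35e-10) and 880.1, 1172, 905 and 1082 CPM against 246 to 279.7 CPM (median 269) (log2 fold change 1.93, SE 0.12, edgeR adjusted p = 3.11e-10), and the related H3F3C had a log2 fold change of 2.24 (SE 0.24). H2AFZ, the H2A.Z histone of promoters, had 28.05, 7.64, 29.98 and 8.75 CPM against 230.1 to 314 CPM (median 276) (log2 fold change -3.87, SE 0.36, edgeR adjusted p = 5.43e-08). Its paralog H2AFV had 21.7, 30.3, 23.6 and 16.99 CPM against 88.01 to 114 CPM (median 102) (log2 fold change -2.14, SE 0.17, edgeR adjusted p = 4.21e-09). The macroH2A gene H2AFY, whose product is enriched on the inactive X chromosome, had 19.8, 4.39, 7.64 and 11.9 CPM against 62.2 to 70.8 CPM (median 64.6) (log2 fold change -2.58, SE 0.30, edgeR adjusted p = 6.52e-07). H2AFJ and H2AFY2 each had 5 counts over the 4 oocytes, against 28.04 to 33.8 CPM and 7.79 to 13.8 CPM in cumulus cells. H2AFX, the histone phosphorylated at DNA breaks, differed least, with 7.32, 17.04, 7.54 and 13.5 CPM against 16.02 to 21.9 CPM (median 17.7) (log2 fold change -0.68, SE 0.23, edgeR adjusted p = 0.0108), and the groups overlapped.

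The core histone family as a whole, defined by symbol, had 37 tested rows of 65, with 25 higher in oocytes and 11 in cumulus cells, where all rows gave 42.8% and 46.2%. Its median log2 fold change was 3.21, against -0.20 for all rows. H2BK1 had 322, 176, 276 and 359.6 CPM in oocytes and 2 counts over the cumulus libraries, a ratio of 12399 (95% counting interval 3432 to 102392). H2BK1 and other rows with hardly any cumulus counts passed the filter on low counts only through the oocytes. HIST1H2AC was not called, with 2.97, 2.99, 3.06 and 6.03 CPM against 1.13 to 4.24 CPM (median 3.05) (log2 fold change 0.34, SE 0.32, edgeR adjusted p = 0.312). Replication-dependent histone genes are near copies of each other whose reads the counting could split, so single rows of this family are uncertain, and their messages mostly lack poly(A) tails in cycling cells.

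XIST and genes imprinted by parent of origin were tested in 4 rows, 3 of them higher in cumulus cells, as were 46.2% of all rows. XIST, the noncoding RNA that coats the inactive X chromosome of female somatic cells, had 1.22, 0.176, 0.0955 and 0.255 CPM in oocytes 2, 3, 6 and 16 and 164 to 378 CPM (median 268) in cumulus cells (log2 fold change -9.11, SE 0.52, edgeR adjusted p = 1.22e-10). Oocyte 2 was the highest oocyte and the log2 fold change without it was -10.54. H19, a maternally expressed noncoding RNA, had 0 counts in all 4 oocytes and 54.4 to 138 CPM (median 103) in cumulus cells, at least 388-fold higher. MEG3, another maternally expressed noncoding RNA, had 0.381, 0.176, 0 and 0.595 CPM against 0.608 to 9.096 CPM (median 6.21) (log2 fold change -4.17, SE 0.77, edgeR adjusted p = 9.51e-05). USP29, a ubiquitin protease paternally expressed in mouse, went the other way, with 2.44, 6.59, 4.97 and 6.03 CPM in the oocytes and 3 counts over the cumulus libraries, a ratio of 143 (95% counting interval 48.2 to 696). The fitted USP29 log2 fold change was 6.77, and 7.68 without the 1 cumulus library, of the cleavage group, that decided it.

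The enzymes that load amino acids onto transfer RNA in the cytosol did not move as a block. Of 19 tested, 12 were higher in cumulus cells, 5 in oocytes and 2 were not called, while 46.2% of all rows were higher in cumulus cells and 42.8% in oocytes. The median log2 fold change was -1.03, against -0.20 for all rows. RARS, which loads arginine, had 194, 337, 360.4 and 364 CPM in oocytes 2, 3, 6 and 16 and 55.01 to 65.4 CPM (median 61.8) in cumulus cells (log2 fold change 2.35, SE 0.15, edgeR adjusted p = 4.54e-10), and kept its direction under each scaling. DARS, TARS, IARS and LARS, for aspartate, threonine, isoleucine and leucine, had log2 fold changes of 0.88, 0.77, 0.55 and 0.50, all of which turned negative with library totals as the only scaling. The TARS call ended without oocyte 3 (0.27) and the LARS call without oocyte 3 (0.31) or oocyte 6 (0.38). NARS and EPRS, for asparagine and for glutamate with proline, were not called, at 127 to 178 CPM against 125 to 148 CPM and 132 to 289.7 CPM against 169 to 214 CPM. With library totals 1 of the 19 was higher in oocytes and 16 in cumulus cells.

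At the other end, QARS, which loads glutamine, stood at 3.66, 0.176, 0 and 0.1699 CPM in the oocytes and 105 to 131 CPM (median 121) in cumulus cells (log2 fold change -6.82, SE 0.68, edgeR adjusted p = 9.63e-08). Oocyte 2 held most of its oocyte counts, and without that library the log2 fold change was -9.97. YARS, for tyrosine, had 2.44, 1.49, 2.77 and 3.91 CPM against 72.3 to 109 CPM (median 88.6) (log2 fold change -5.02, SE 0.25, edgeR adjusted p = 2.72e-11). VARS, for valine, had 21.6, 7.46, 7.83 and 12.8 CPM against 135 to 169 CPM (median 149) (log2 fold change -3.60, SE 0.27, edgeR adjusted p = 3.52e-09). The oocytes lay below every cumulus library for these 3 enzymes. KARS, for lysine, showed a smaller difference, with 51.8, 73.2, 55.7 and 72.9 CPM against 194 to 242 CPM (median 221) (log2 fold change -1.80, SE 0.14, edgeR adjusted p = 6.08e-09). HARS, AARS, TARSL2, CARS and SARS had log2 fold changes of -3.60, -3.12, -3.64, -3.20 and -2.90, and WARS, GARS and MARS had -1.03, -0.66 and -0.65. The oocyte and cumulus ranges overlapped for GARS and, at 61.7 CPM, for MARS.

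**Figure D3:**
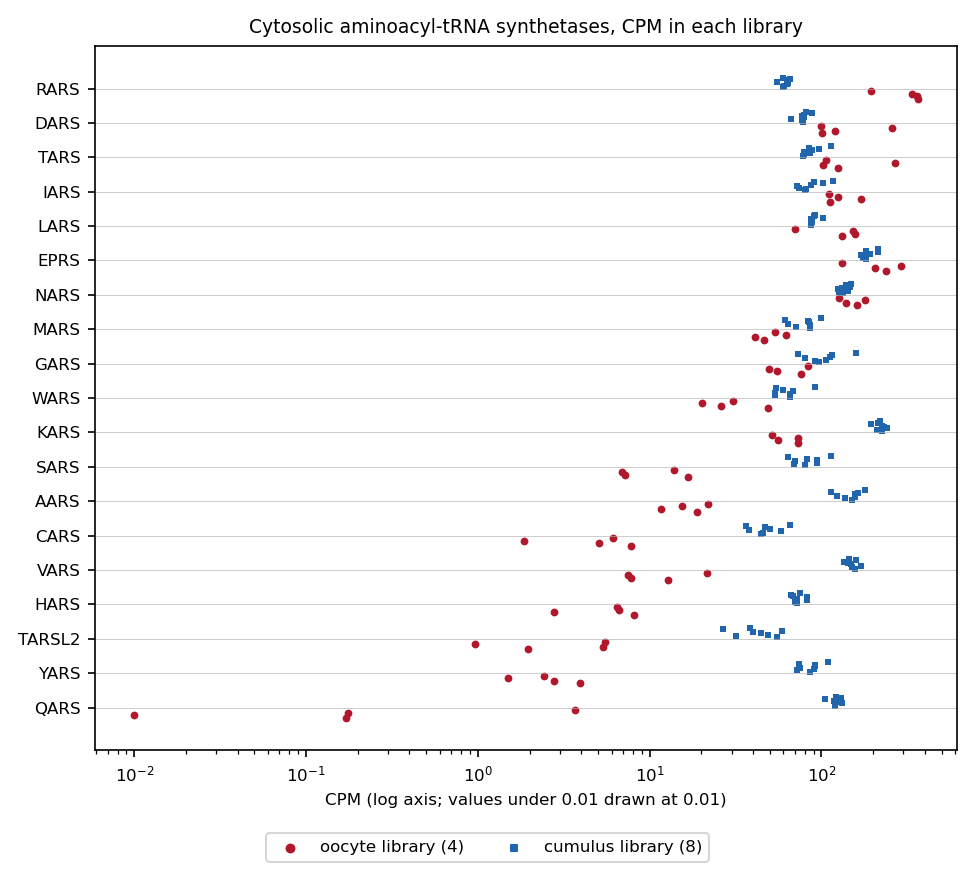
CPM of the 19 cytosolic aminoacyl-tRNA synthetases in each library on a log axis, ordered by log2 fold change, with 4 oocyte libraries as red circles and 8 cumulus libraries as blue squares and values under 0.01 drawn at 0.01. Relative to the cumulus libraries of the same enzyme, oocyte levels run from above the cumulus range for RARS to far below it for QARS, where oocyte 2 stands apart at 3.66 CPM.

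RPL31, the 1 ribosomal protein with a tested row under its symbol, was lower in oocytes, with 119, 98.4, 70.8 and 134 CPM against 494 to 614 CPM (median 542) (log2 fold change -2.36, SE 0.18, edgeR adjusted p = 3.16e-09). Of 57 tRNA rows 3 were tested, with TRNAM-CAU higher in oocytes (2.29, 6.59, 3.34 and 7.31 CPM against 0 to 0.479 CPM) and TRNAC-GCA higher in cumulus cells (2.64 to 4.12 CPM, with 13 counts over the oocytes). TRNAE-UUC was not called. Near-identical tRNA loci share reads, so these rows are uncertain.

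Collagens, the triple-helical proteins of the extracellular matrix, had 11 tested chains. Of these 6 were higher in cumulus cells and 5 in oocytes, shares near the 46.2% and 42.8% of all rows. COL4A4, a basement membrane chain, had 2.74, 4.57, 3.44 and 2.55 CPM in oocytes 2, 3, 6 and 16 and 144 to 169.98 CPM (median 157) in cumulus cells (log2 fold change -5.57, SE 0.20, edgeR adjusted p = 5.74e-13). COL21A1 had 44.8, 31.96, 65.3 and 35.6 CPM against 128 to 204 CPM (median 156) (log2 fold change -1.87, SE 0.21, edgeR adjusted p = 3.31e-07). Both lay wholly below the cumulus range in the oocytes. COL9A2 had 4 counts over the oocytes against 17.2 to 32.1 CPM, COL7A1, of anchoring fibrils, had 3 counts against 2.43 to 4.18 CPM, a ratio of 52.4 (95% counting interval 17.7 to 255) in favour of cumulus cells, and COL25A1 and COL16A1 had log2 fold changes of -2.76 (SE 0.35) and -2.87 (SE 0.32). The log2 fold change of COL9A2 was -7.79, and -9.10 without oocyte 2.

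In the oocytes COL24A1, a fibrillar collagen, had 93.97, 171, 195 and 115 CPM against 1.58 to 3.73 CPM (median 2.901) (log2 fold change 5.70, SE 0.24, edgeR adjusted p = 3.48e-12). COL28A1 had 19.4, 9.92, 13.2 and 12.5 CPM in the oocytes and 2 counts over the cumulus libraries, a ratio of 607 (95% counting interval 167 to 5023). COL6A6 varied most between oocytes, at 1.37, 3.6004, 41.3 and 15.4 CPM against 0 to 0.257 CPM, and its log2 fold change of 7.58 became 6.40 without oocyte 6 and 8.23 without 1 cumulus library of the cleavage group. COL19A1 had 5.34, 13.9, 2.67 and 2.38 CPM against 0.0857 to 0.383 CPM, a log2 fold change of 4.87 that was 4.02 without oocyte 3. COL22A1 had a log2 fold change of 1.13 (edgeR adjusted p = 0.0146), and the call ended without oocyte 3 (0.62). The laminins, the other main chains of basement membranes, had 2 tested rows. LAMA5 had 5.94, 0.878, 1.53 and 2.72 CPM against 70.2 to 96.2 CPM (median 78.7) (log2 fold change -4.82, SE 0.39, edgeR adjusted p = 7.24e-09; -5.63 without oocyte 2), and LAMA2 had 41.7, 30.2, 24.9 and 28.6 CPM against 2.93 to 4.37 CPM (median 3.62) (log2 fold change 3.11, SE 0.18, edgeR adjusted p = 1.39e-10).

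The CCN family of secreted matricellular proteins had 3 tested rows. CTGF was described above, and CYR61, the family member CCN1, had 0.6097, 0.527, 0 and 0 CPM in the oocytes and 15.5 to 20.6 CPM (median 17.5) in cumulus cells (log2 fold change -5.87, SE 0.50, edgeR adjusted p = 1.51e-08). Without oocyte 2 the CYR61 log2 fold change was -6.67. WISP3, the member CCN6, was the exception, with an even 36.3, 34.95, 41.5 and 41.5 CPM in the oocytes and 0 to 0.186 CPM (median 0.0448) in cumulus cells (log2 fold change 8.91, SE 0.37, edgeR adjusted p = 3.62e-12). The other 3 members of the family had rows that did not pass the filter on low counts.

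**Figure D4:**
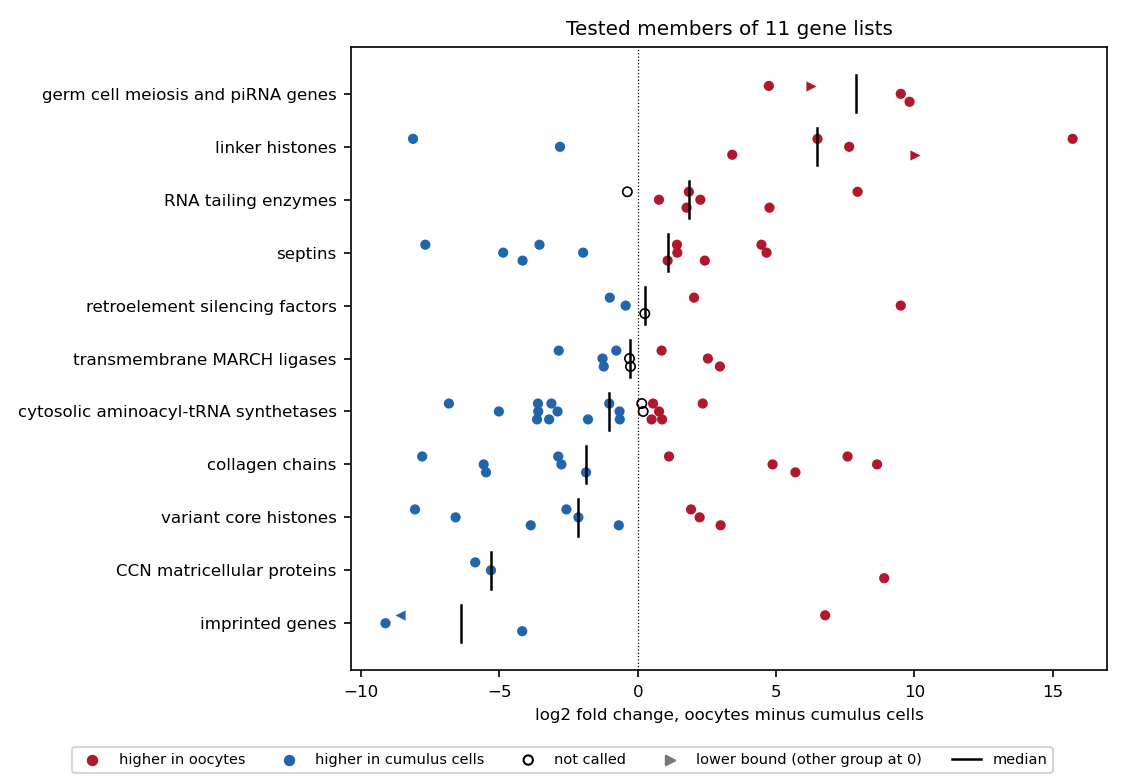
Log2 fold change (oocytes minus cumulus cells) of each tested member of 11 gene lists, with red points called higher in oocytes, blue points called higher in cumulus cells and open points not called. Triangles are lower bounds of genes with no count in the other group, and the vertical bars are list medians, with such genes at their bound. Members of 1 list often lie on both sides of 0, as the linker histones, septins and collagens do. The MARCH list is drawn under the label transmembrane, which need not hold for each member.

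Septins, GTP-binding proteins that form filaments at the cell cortex and the division furrow, were tested in 11 rows, with 6 higher in oocytes and 5 in cumulus cells, near the 42.8% and 46.2% of all rows. SEPT7, the subunit common to most septin filaments, had 279, 507, 604 and 384 CPM in oocytes 2, 3, 6 and 16 and 69.9 to 102 CPM (median 82.4) in cumulus cells (log2 fold change 2.42, SE 0.18, edgeR adjusted p = 2.32e-09). SEPT11 had 359, 802, 414 and 317 CPM against 139 to 237 CPM (median 166) (log2 fold change 1.42, SE 0.22, edgeR adjusted p = 1.38e-05). SEPT1 and SEPT12 were low in cumulus cells, with 40.6 to 57.1 CPM against 1.49 to 3.48 CPM and 7.09 to 49.001 CPM against 0.566 to 1.46 CPM. Their log2 fold changes were 4.47 (SE 0.21) and 4.66 (SE 0.40), the second 3.96 without oocyte 3. SEPT8 and SEPT4 had 1.08 (SE 0.23) and 1.43 (SE 0.43), and neither was called with library totals as the only scaling.

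In the other direction, SEPT2 had 32.9, 28.9, 54.2 and 49.9 CPM against 154 to 171 CPM (median 162) (log2 fold change -1.97, SE 0.17, edgeR adjusted p = 2.4e-08) and SEPT9 had 7.24, 5.09, 0.286 and 1.699 CPM against 78.3 to 120.3 CPM (median 108) (log2 fold change -4.86, SE 0.50, edgeR adjusted p = 1.72e-07). SEPT9 was highest in oocyte 2, and its log2 fold change without that library was -5.58. SEPT10 and SEPT6 had log2 fold changes of -4.16 (SE 0.28) and -3.55 (SE 0.23). SEPT5 had 5 counts over the 4 oocytes against 20.9 to 30.1 CPM in cumulus cells, a log2 fold change of -7.67, or -8.50 without oocyte 2. For SEPT2, SEPT9, SEPT10, SEPT6 and SEPT5 all 4 oocytes lay below all 8 cumulus libraries.

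The MARCH family of ubiquitin ligases showed mostly small differences. Of 9 tested, 3 were higher in oocytes, 4 in cumulus cells and 2 were not called, beside 89% of all rows called. MARCH7 differed most, with 195, 572, 417 and 351 CPM against 37.7 to 60.7 CPM (median 48.5) (log2 fold change 2.97, SE 0.21, edgeR adjusted p = 1.62e-09). MARCH2 had 5.64, 0.0878, 4.11 and 2.04 CPM against 15.3 to 29.1 CPM (median 22.2) (log2 fold change -2.85, SE 0.51, edgeR adjusted p = 7.09e-05). MARCH10, MARCH8 and MARCH9 were lower in oocytes by log2 fold changes of -0.77, -1.23 and -1.27. Oocyte 2 was the highest oocyte for MARCH8, MARCH9 and MARCH2, and without it their log2 fold changes were -1.88, -1.95 and -3.50. MARCH4 had a log2 fold change of 2.54, and 1.74 without oocyte 2. MARCH3 had 0.86 (edgeR adjusted p = 0.0255), a call that ended without oocyte 3 (0.78) or oocyte 16 (0.38) and turned with library totals (-0.11). MARCH6 and MARCH5 were not called, at 57.1 to 96.9 CPM against 83.7 to 105 CPM and 20.8 to 32.5 CPM against 26.5 to 39.5 CPM.

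Subunits of 1 pathway could lie on opposite sides. WRB and ASNA1 act in turn to insert tail-anchored proteins into the endoplasmic reticulum, WRB as the membrane receptor and ASNA1 as the ATPase that delivers the protein. WRB had 169.6, 193, 201 and 154 CPM in oocytes 2, 3, 6 and 16 and 23.5 to 28.9 CPM (median 27.97) in cumulus cells (log2 fold change 2.73, SE 0.12, edgeR adjusted p = 4.43e-12). ASNA1 had 2.44, 1.49, 1.05 and 1.95 CPM against 64.1 to 83.5 CPM (median 70.6) (log2 fold change -5.37, SE 0.23, edgeR adjusted p = 3.78e-12). The oocytes lay above all cumulus libraries for WRB and below them all for ASNA1. Of the mitochondrial ATP synthase list, the small subunit ATP5MD had 313, 492, 753 and 466 CPM against 58.8 to 77.6 CPM (median 70.2) (log2 fold change 2.84, SE 0.18, edgeR adjusted p = 3.67e-10), while the small subunit ATP5MPL had 18.7, 13.3, 15.1 and 21.2 CPM against 49.6 to 63.01 CPM (median 57.01) (log2 fold change -1.72, SE 0.16, edgeR adjusted p = 3.3e-08). ATP5S, a mitochondrial protein now named DMAC2L, had a log2 fold change of 2.97 (SE 0.18).

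A few further regulators had rows under older symbols. MKL1 and MKL2, actin-sensing coactivators of serum response factor, were lower in oocytes by -1.22 (SE 0.24) and -0.66 (SE 0.14) on the log2 scale. HMGN3, a nucleosome-binding protein, was higher, at 48.2, 131, 89.4 and 85.7 CPM against 30.8 to 36.9 CPM (median 32.5) (log2 fold change 1.40, SE 0.19, edgeR adjusted p = 3.47e-06). TMEM8A, the lipase PGAP6 that acts on GPI-anchored proteins, had 0.762, 0.527, 1.72 and 1.95 CPM against 41.1 to 53.6 CPM (median 45.9) (log2 fold change -5.25, SE 0.30, edgeR adjusted p = 1.34e-10). SELENOW, a selenoprotein, had 21.9, 4.303, 11.46 and 16.1 CPM against 32.1 to 50.8 CPM (median 40.7) (log2 fold change -1.60, SE 0.31, edgeR adjusted p = 0.000143). Of 11 tested solute carriers 4 were higher in oocytes, 3 in cumulus cells and 4 were not called, beside 42.8% and 46.2% of all rows. Scaled by library totals alone, 1 carrier was higher in oocytes and 6 in cumulus cells. SLC5A3, a myo-inositol transporter, was not called, at 67.8 to 216 CPM against 86.7 to 132 CPM. SLC25A24, a mitochondrial carrier, and SLC47A1, a cation exporter, had log2 fold changes of 1.201 and 1.13, and PQLC1 had -3.87. SLC9C2 had 0.62, and -0.37 with library totals as the only scaling.

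Broad families of mixed function were defined by symbol alone, and their counts are read against 42.8% of all rows higher in oocytes and 46.2% in cumulus cells. Of 59 tested zinc finger rows 21 were higher in oocytes, 30 in cumulus cells and 8 were not called, with a median log2 fold change of -0.56. ZNF845 and ZNF280D had 257, 453, 527 and 361 CPM against 10.5 to 17.6 CPM (median 13.2) (log2 fold change 4.92, SE 0.19, edgeR adjusted p = 1.63e-12) and 118, 411, 367 and 332 CPM against 13.4 to 20.4 CPM (median 16.5) (log2 fold change 4.19, SE 0.25, edgeR adjusted p = 2.22e-10). ZNF664 was lower in oocytes, with 65.2, 64.1, 66.7 and 42.3 CPM against 120.1 to 149 CPM (median 133) (log2 fold change -1.17, SE 0.14, edgeR adjusted p = 1.22e-06), and ZNF77 was higher by 3.03, or 2.31 without oocyte 3. ZNF33B was not called. Zinc finger genes have close paralogs, so single rows are uncertain. Of 15 tested TMEM rows 6 were higher in oocytes, including TMEM241 (2.43) and TMEM269 (3.04, or 2.43 without oocyte 3), and 9 in cumulus cells. TMEM181 had 0.55, and -0.35 with library totals. Of 47 tested FAM rows 22 were higher in oocytes and 18 in cumulus cells, a balance that turned to 19 and 25 under library totals alone. For zinc finger rows library totals gave 12 and 36. FAM192A, the proteasome regulator PSME3IP1, had 229, 981, 443 and 488 CPM against 23.8 to 31.04 CPM (median 28.4) (log2 fold change 4.24, SE 0.26, edgeR adjusted p = 3.17e-10).

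Of 76 tested rows named for a chromosome's open reading frame, 40 were higher in oocytes, 27 in cumulus cells and 9 were not called, beside 42.8% and 46.2% of all rows. Scaled by library totals alone, 32 were higher in oocytes and 34 in cumulus cells. CXHXorf56, the STING trafficking factor STEEP1, had 298, 446, 245 and 232 CPM against 18.8 to 25.4 CPM (median 21.6) (log2 fold change 3.80, SE 0.17, edgeR adjusted p = 7.69e-12). C14H8orf59, the ribosome assembly factor RBIS, had 164, 275, 195 and 168 CPM against 13.6 to 16.4 CPM (median 15.3) (log2 fold change 3.72, SE 0.15, edgeR adjusted p = 1.69e-12). C20H5orf51 had a log2 fold change of 2.79 (SE 0.14), and C8H9orf3 was not called. Of 1024 chemosensory receptor rows, 174 had a count and 5 were tested. OR2A69 had 50.5, 135, 31.3 and 38.9 CPM in the oocytes and 0 counts in the cumulus libraries, at least 231-fold higher. OR4B1H was as absent from cumulus cells and at 21.6, 31.96, 27.6 and 29.5 CPM in the oocytes, at least 99.96-fold higher, and OR4C45 at least 32.2-fold higher. OR10AL42 was lower in oocytes, with 3.81, 2.37, 1.81 and 0.765 CPM against 10.3 to 15.7 CPM (median 12.2) (log2 fold change -2.49, SE 0.32, edgeR adjusted p = 2.43e-06). Near-identical receptor genes share reads, so these rows are uncertain.

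Rows with LOC identifiers could be sorted by the gene type that RefSeq gives. Of 787 tested long noncoding rows 381 (48.4%) were higher in oocytes and 299 (38.0%) in cumulus cells. Of 399 tested protein-coding LOC rows 210 (52.6%) were higher in oocytes and 144 (36.1%) in cumulus cells. Over all tested rows the shares were 42.8% and 46.2%. Of 14809 Ensembl rows 41.9% were higher in oocytes and 47.3% in cumulus cells. Ensembl rows are not paired with names in the files, and they hold the most abundant RNAs of both groups. ENSBTAG00000034346 had 9079.7, 77242, 37242 and 23025 CPM in oocytes 2, 3, 6 and 16 against 0 to 0.191 CPM (median 0.0936), and its log2 fold change of 18.28 was 17.52 without oocyte 3. ENSBTAG00000037710 was more even, with 13488, 18049, 18459.9 and 12424 CPM against 0.171 to 1.22 CPM (median 0.516) (log2 fold change 14.69, SE 0.36, edgeR adjusted p = 4.41e-14). In cumulus cells ENSBTAG00000003300 reached 15479.7 to 18979 CPM (median 18128) against 8.99, 1.32, 1.91 and 2.97 CPM in the oocytes, a log2 fold change of -12.17, or -13.17 without oocyte 2. ENSBTAG00000014906 had 8435 to 13446 CPM (median 11515) against 37.3, 18.3, 31.1 and 23.1 CPM (log2 fold change -8.69, SE 0.32, edgeR adjusted p = 8.35e-13).

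RNA of the genes higher in cumulus cells made up a small and uneven share of each oocyte library. The 4353 rows at least 8-fold higher in cumulus cells with no overlap held 1.33%, 0.426%, 0.623% and 0.851% of the tested counts of oocytes 2, 3, 6 and 16, and 43.0% to 44.5% of those of the cumulus libraries. The 3723 corresponding rows of oocytes held 55.3%, 67.9%, 64.0% and 61.9% of oocyte counts and 4.03% to 4.46% of cumulus counts. Oocyte 2 thus had the largest share of the first set and the smallest of the second, and it was also the oocyte with the most TIMP1, the 1 cumulus marker tested. Of 3784 cumulus-high rows with a count in the oocytes, 1860 were highest in oocyte 2, 819 in oocyte 16, 599 in oocyte 6 and 506 in oocyte 3. These sets were chosen on the same libraries, so their shares are a description. Whether somatic RNA in an oocyte library has a part in the fold changes was not tested, and leaving out oocyte 2 left 7370 rows higher in oocytes and 8576 in cumulus cells.

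The same genes were followed in libraries that took no part in the comparison. Of the 7466 rows higher in oocytes, 5632 (75.4%) had a higher mean in the 8 biopsies than in the 8 granulosa libraries, against 42.4% of all tested rows. Of the 8059 rows higher in cumulus cells, 7007 (86.9%) had a higher mean in granulosa cells. The base for this direction was also the larger one, since only 42.4% of all tested rows were higher in biopsies. The granulosa libraries behind these means were uneven. The 3723 rows at least 8-fold higher in oocytes with no overlap held 31.3% and 21.1% of tested counts in granulosa libraries B20 and D27. In each of the other granulosa libraries they held at most 14.9%. All 12 oocyte genes named first were higher in every one of the 12 ooplasm biopsies than in any granulosa library. BCL2L10 had 1849 to 3268 CPM in the 8 biopsies and 2391 to 3562 CPM in the 4 biopsies matched by number to the oocytes, against 0.198 to 1.84 CPM in granulosa cells. MAD2L1 had 523 to 2251 CPM in the 8 biopsies and 54.6 to 289 CPM in granulosa cells. Other genes higher in oocytes than in cumulus cells were not low in every granulosa library. MORC1 reached 99.7 CPM there (median 6.91), COL24A1 215 CPM (median 20.9), COL19A1 288 CPM (median 22.9) and LAMA2 381 CPM (median 36.0). Each of these maxima lay above the oocyte range. TCL1B, with at most 1.23 CPM, and WISP3, with at most 9.28 CPM, stayed below it. Some of the cumulus genes were lower in granulosa cells. TIMP1, the cumulus marker tested, had 0.493 to 350 CPM (median 19.3) in granulosa libraries. G0S2 had 0.2595 to 3.496 CPM, SSTR1 0 to 20.8 CPM, GCKR 11.4 to 43.9 CPM and H19 0.329 to 10.3 CPM. All of these lay below their cumulus range. XIST and COL4A4 had 114 to 1246 CPM and 109 to 918 CPM there, reaching above it. In the biopsies G0S2 was at 0 in all 12 libraries.

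**Figure D5:**
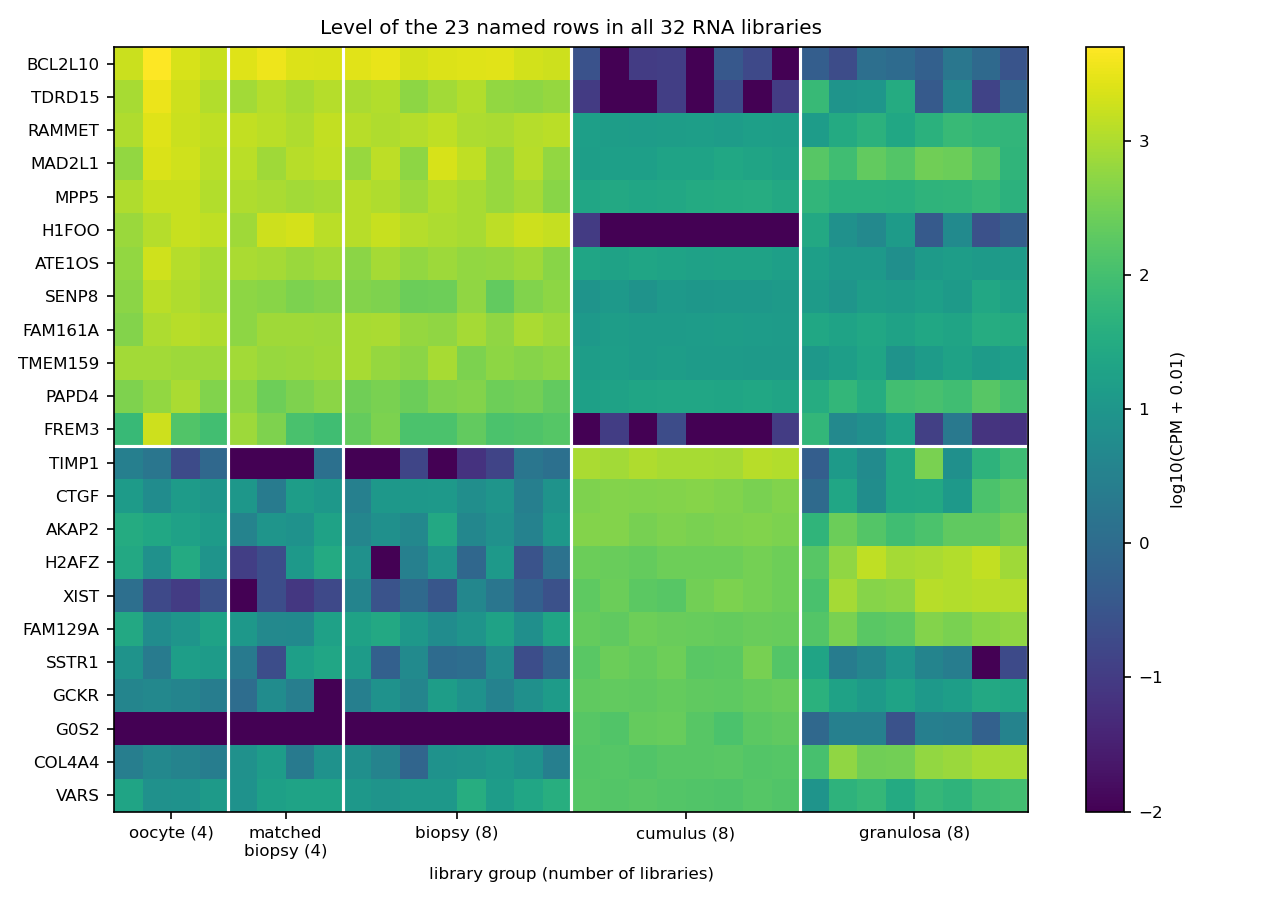
Level of 23 named rows, as log10 of CPM plus 0.01 by colour, in all 32 RNA libraries grouped by cell type. Rows above the white line were chosen as higher in oocytes and rows below it as higher in cumulus cells. The 12 biopsies resemble the 4 oocytes in nearly every row, while granulosa libraries follow cumulus cells for some rows, such as COL4A4, and not for others, such as G0S2 and SSTR1.

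At the depth sequenced, the number of detected rows and the weight of the most abundant rows were not shown to differ. Oocyte libraries were the deeper ones, and at equal depth they had fewer detected rows. At 5 counts or more, oocytes had 17393 ± 749 rows (SD, n = 4) and cumulus libraries 16976 ± 165 (SD, n = 8), a difference of 417.5 (exact two-sided permutation test, p = 0.178; the smallest p it allows is 0.00404). Without oocyte 2 the difference was 77.6. Thinned to the smallest library, the difference was -1407.75 rows (exact permutation p = 0.0121), so the sign changed with depth. The 10 most abundant rows held 8.15% ± 1.63 of counts in oocytes and 9.26% ± 0.502 in cumulus libraries, a difference of -1.11 percentage points (exact permutation p = 0.117). Without oocyte 3, which had the largest share of the 4, the difference was -1.84 percentage points (exact permutation p = 0.0121).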

How the data were processed

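RNA counts came from 4 tables of 59051 rows that the authors deposited as whole numbers per row, not normalized. The SMART-Seq HT kit made the cDNA and a Nextera XT kit the libraries, per the labels' protocols. Trim Galore, cutadapt, STAR and featureCounts are named per the submitters' processing notes, with no version or setting. Strand use and genome build were not given in the sources used here. Left out were 22227 NONCODE rows and the 24 value columns of the polar body table. Names came from RefSeq (assembly ARS-UCD2.0), which matched 5258 of 7848 LOC identifiers, 1105 with a symbol. In all 2474 rows carried a symbol, so most known genes could not be looked up, and the 27607 Ensembl rows stay unnamed.

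The oocyte and cumulus tables were joined by row name. Rows were filtered with filterByExpr by cell type, scaled by TMM and fitted in edgeR 4.0.16 under R 4.3.3 (robust quasi-likelihood F test, 4 against 8 libraries, no covariate), and a Benjamini-Hochberg adjusted p under 0.05 over 17441 rows was called. SE is the log2 fold change divided by the root of F. Where a group had 1 to 3 counts a ratio with a 95% counting interval is given, and where it had 0 a floor of 3 counts per library. Intervals and floors cover counting error only, since reads carry no molecular identifiers. An exact two-sided permutation test compared single values. Biopsies and granulosa libraries were put on the same CPM scale for description. DESeq2 1.42.0 gave other size factors and a Wald test on all 29329 rows with a count. On simulated counts of 17441 rows with the size of this comparison, 38% to 58% of 2-fold, 86% to 96% of 4-fold and 94% to 100% of 8-fold changes were recovered. The simulation took means pooled over the 12 libraries and changed few rows, equally up and down. In the data 89% of rows were called, so the simulation cannot show how the scaling behaves here. All pairs of oocytes and all pairs of cumulus libraries of the same fate differed by more than counting noise (chi-square over its degrees of freedom at least 4.70). In these pairs no library was taken for a copy of the other, which does not show that they are biological replicates. Cumulus libraries of different fate were not compared in this way.

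The members and the gene lists were chosen with earlier results of these data known. Named genes are symbol rows: in each direction the 12 of highest mean CPM among those called, at least 8-fold apart and not overlapping, up to 4 called members of each list with the highest mean CPM and the most abundant one not called, 2 unnamed rows per direction, and markers. Of these, 1 row is not reported here. Short lists were given whole after their values had been seen.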

Additional observations from a re-analysis of the deposited data

Results flagged for a closer look

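Values were flagged where the highest or lowest library of a group lay far from the others by Dixon's criterion. Of 299 sets of values 23 were flagged, and chance flags about 1 in 20. Oocyte 3 stood above the other 3 oocytes for TARS (267 against 102 to 125 CPM), DARS (258 against 99.8 to 119), TMEM269 (226 against 70.4 to 93.5) and FREM3 (1847 against 70.3 to 141), and below them for FAM46B (109.6 against 230.2 to 244 CPM). Oocyte 2 stood above the others for QARS (3.66 against 0 to 0.176 CPM), MARCH8 (21.6 against 7.22 to 8.17) and XIST (1.22 against 0.0955 to 0.255), and below them for RARS (194 against 337 to 364 CPM). Oocyte 16 had 6.03 CPM of HIST1H2AC against 2.97 to 3.06 and 42.3 CPM of ZNF664 against 64.1 to 66.7. Oocyte 6 had 5.83 CPM of COL25A1 against 1.83 to 2.20.

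Among cumulus libraries, 1 stood apart for LARS (102 against 86.7 to 92.0 CPM), WARS (91.4 against 53.4 to 67.9), HIST1H1D (1.63 against 2.999 to 3.68), MARCH4 (1.24 against 0.171 to 0.558), TDRKH (1.58 against 0.406 to 0.916) and COL22A1 (4.16 against 0.849 to 2.42 CPM). Rows with hardly any cumulus counts gave 4 more, where 1 library had 0.0869 CPM of H1FOO against 0 in the others, 0.257 CPM of COL6A6 against 0 to 0.0957, 0.479 CPM of TRNAM-CAU against 0 to 0.174, or 0.203 CPM of FREM3 against 0 to 0.0957. The cumulus library with the fewest detected rows had 16589 against 16937 to 17111, and it also had the fewest counts.

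NONCODE rows, outside the comparison, held 9.27%, 4.21%, 6.79% and 5.62% of counts in oocytes 2, 3, 6 and 16 and at most 0.00276% in cumulus libraries. Over all 32 RNA libraries they held 4.21% to 9.27% in 16 ooplasm libraries and 4.14e-05% to 0.00276% in 16 somatic ones. Cell type and table cannot be told apart here.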

How the results depend on the processing

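The counts of 7466 rows higher in oocytes and 8059 higher in cumulus cells stayed within 1.5 times of these values in every alternative run. Leaving out each library in turn gave 7363 to 7569 and 7926 to 8576, cumulus cells of the blastocyst group alone 7266 and 7488, of the cleavage group alone 7185 and 7484, and the DESeq2 Wald test on unfiltered rows 9533 and 9692. Library totals as the only scaling gave 5840 and 9637 and reversed 724 of 15525 calls, so direction at small folds depends on scaling. No paired analysis was possible because the cumulus columns (5 to 12) cannot be matched to the numbers in their titles (1 to 4) and share only 1 number, 6, with the oocyte columns, which the labels do not tie to a common source. The difference in detected rows reversed to -371 at a minimum of 1 count and to -1407.75 after thinning to the smallest total, and was 4633.25 with NONCODE rows (exact permutation p = 0.00404). Leaving out each library gave 77.6 to 610.25. The share of the 10 most abundant rows, -1.11 points, reversed to 0.483 for the top 50 and 1.05 for the top 100, was -1.55 with NONCODE rows (exact permutation p = 0.0485), and ran from -1.84 to -0.688 without each library in turn. For these single values the cause was not tested. Of named rows, library totals reversed TARS (-0.24), LARS (-0.49), IARS (-0.40), DARS (-0.14), MARCH3 (-0.11), ZCCHC11 (-0.20), SLC9C2 (-0.37) and TMEM181 (-0.35), and, among rows not called, EPRS (-0.79), NARS (-0.80), FAM208B (-0.63), HIST1H2AC (-0.57), ZNF33B (-0.66), TRNAE-UUC (-0.70), SLC5A3 (-0.57) and C8H9orf3 (-0.95). The other reversals were of rows not called. Without the filter they were EPRS (-0.0097), NARS (-0.055), TRNAE-UUC (-0.033) and C8H9orf3 (-0.16), and without 1 library they were EPRS (-0.060 without oocyte 3, and up to 0.26 over the libraries left out), NARS (-0.017 without oocyte 3, up to 0.18), C8H9orf3 (-0.25 without oocyte 3, up to 0.11) and TRNAE-UUC (-0.32 without oocyte 2, up to 0.27). With blastocyst-group cumulus cells alone they were TRNAE-UUC (-0.094) and C8H9orf3 (-0.069), with the DESeq2 Wald test NARS (-0.011), TRNAE-UUC (-0.014) and C8H9orf3 (-0.10), and with DESeq2 size factors C8H9orf3 (-0.054). Of 3014 settings of 151 named rows, 39 lost a call and 15 gained one.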
